A study of Mus musculus with 15 samples.

Results

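The genes described here encode 10 neuropeptides of mouse brain: Sst, Npy, Vip and Cck, best known from cortical and hippocampal interneurons, and Avp, Oxt, Pmch, Hcrt, Trh and Cartpt, best known from the hypothalamus. They were picked by gene symbol from a count table of 30386 genes, and all 10 were found in it. The samples were 15 brain libraries, 5 per group. Het_B12 and Het_PBS mice were heterozygous for Tbx1 (Tbx1+/-), which encodes a T-box transcription factor, and WT_PBS mice were wild type. Het_B12 mice had vitamin B12 at 20 mg/kg in phosphate-buffered saline (PBS), and Het_PBS and WT_PBS mice had PBS alone. Injections were intraperitoneal, began at an age of 4 weeks, and went on 2 times weekly over 4 weeks. The vitamin is thus seen in heterozygotes, and treated wild types are not analysed here. The tissue is called brain hemisphere in one label and whole brain in another, and no label says whether the hypothalamus or pituitary stalk was kept. The labels name neither the allele nor a sex or strain. Nothing in them states that each library is a separate mouse, and p-values therefore measure the spread between these libraries.

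Neuropeptides are made as larger precursors, cut by proprotein convertases inside dense-core granules, trimmed, often amidated, and released to act on G-protein-coupled receptors. Somatostatin (Sst), neuropeptide Y (Npy) and vasoactive intestinal peptide (Vip) each mark classes of GABAergic interneuron, while cholecystokinin (Cck) is made both by a class of basket cell and by many excitatory neurons of cortex and thalamus. Vasopressin (Avp) and oxytocin (Oxt) come from large neurons of the paraventricular and supraoptic nuclei, and melanin-concentrating hormone (Pmch) and hypocretin, also called orexin (Hcrt), from separate neurons of the lateral hypothalamus that are known for roles in feeding and sleep. Thyrotropin-releasing hormone (Trh) drives the thyroid axis, and the CART prepropeptide (Cartpt) is made in the arcuate nucleus, lateral hypothalamus and nucleus accumbens.

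The members lie on 7 chromosomes. Avp (GRCm38 chromosome 2, 130580620 to 130582554, minus strand) and Oxt (chromosome 2, 130576173 to 130577054, plus strand) are neighbours that face each other with 3565 bases between their ends. Sst (chromosome 16, 23889573 to 23890958) is on the chromosome of Tbx1, 5.30 Mb from it. Of the 10 genes, Pmch alone overlaps another annotated gene, Parpbp on the opposite strand, which had 4 reads against 705 for Pmch. The 250 bases before RefSeq's start site are printed below, in the GRCm38.p6 sequence, for Avp, Oxt, Pmch and Hcrt, whose levels varied together, and for Sst and Cartpt, the members with a full cAMP response element. Gene positions are GENCODE's, which can place the start elsewhere. The Sst window reaches into the gene as placed above, and the Cartpt window lies inside the GENCODE gene (chromosome 13, 99898489 to 99901091). Capitals mark TGACGTCA (the cAMP response element, a palindrome), TGACG (its shorter core, on either strand, also contained in the full element), TATAAA and CATAAA (both on the printed strand only). CATAAA was added after the sequences had been read.
Avp, chr2:130582589-130582838, minus strand: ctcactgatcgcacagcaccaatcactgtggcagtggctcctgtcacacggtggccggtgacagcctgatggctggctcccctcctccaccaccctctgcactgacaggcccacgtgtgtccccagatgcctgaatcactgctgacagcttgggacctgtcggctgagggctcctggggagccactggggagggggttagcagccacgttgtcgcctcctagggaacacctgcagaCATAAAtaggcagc
Oxt, chr2:130575919-130576168, plus strand: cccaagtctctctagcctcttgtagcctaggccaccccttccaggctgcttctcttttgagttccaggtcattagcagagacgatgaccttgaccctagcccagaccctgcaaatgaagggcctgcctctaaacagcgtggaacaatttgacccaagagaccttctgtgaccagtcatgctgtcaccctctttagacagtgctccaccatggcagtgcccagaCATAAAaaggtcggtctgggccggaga
Pmch, chr10:88090822-88091071, plus strand: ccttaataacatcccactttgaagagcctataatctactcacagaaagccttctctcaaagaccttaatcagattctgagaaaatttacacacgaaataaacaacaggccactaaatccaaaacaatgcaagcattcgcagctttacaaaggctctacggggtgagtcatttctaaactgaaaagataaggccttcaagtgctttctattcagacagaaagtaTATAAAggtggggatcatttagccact
Hcrt, chr11:100762932-100763181, minus strand: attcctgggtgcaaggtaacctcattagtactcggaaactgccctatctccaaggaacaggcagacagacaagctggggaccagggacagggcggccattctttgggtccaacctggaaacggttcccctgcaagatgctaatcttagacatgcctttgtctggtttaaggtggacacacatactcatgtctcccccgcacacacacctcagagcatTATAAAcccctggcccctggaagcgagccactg
Sst, chr16:23890845-23891094, minus strand: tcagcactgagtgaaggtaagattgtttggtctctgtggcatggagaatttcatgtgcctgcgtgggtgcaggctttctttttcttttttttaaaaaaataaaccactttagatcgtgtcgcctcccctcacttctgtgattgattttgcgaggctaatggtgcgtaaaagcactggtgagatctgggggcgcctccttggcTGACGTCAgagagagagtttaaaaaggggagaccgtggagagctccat
Cartpt, chr13:99900684-99900933, minus strand: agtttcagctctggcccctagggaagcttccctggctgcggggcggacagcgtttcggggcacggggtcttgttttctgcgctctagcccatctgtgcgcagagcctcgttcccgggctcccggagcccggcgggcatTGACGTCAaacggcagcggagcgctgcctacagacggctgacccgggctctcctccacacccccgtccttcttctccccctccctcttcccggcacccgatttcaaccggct

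Promoters were found for all 10 genes. The full element stood in 2 of the 10 (Sst, first base at -48 from the start site, and Cartpt, at -112), and in 1.55% of all 32851 promoter windows of this length. The shorter core stood in 5 of 10, adding Vip, Cck and Trh, against 17.8% of all windows. TATAAA stood at -27 in Pmch and at -33 in Hcrt, and also in Vip; 7.59% of all windows held it. CATAAA stood at -14 in Avp and -27 in Oxt, and also in Npy, against 5.98% of all windows. Avp, Oxt, Pmch and Hcrt held none of the first pair of motifs in these windows. A match of letters is a description and no binding was measured.

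RNA was read from its 3′ ends by QuantSeq, so that a count stands for a transcript end and levels of different genes can be set side by side without correction for length. Levels are given as CPM, the usual depth-normalised count, with library sizes scaled by TMM, a correction for library composition. Libraries held 1683258 (Het_PBS 5) to 2746122 (Het_B12 5) counts, and 3 counts, taken as the floor, made 1.09 to 1.78 CPM. Tbx1 had 1 read in Het_B12, 3 in Het_PBS and 3 in WT_PBS, each from 1 library, which gives no check of the genotype labels. On the first principal component WT_PBS 3 stood with the Het_B12 libraries, and on the second Het_PBS 5 stood farthest out.

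The peptide genes fell into an abundant trio and a scarce remainder. Over the 15 libraries Cck averaged 532 ± 62.7 CPM, Sst 168 ± 32.5 CPM and Npy 128 ± 24.2 CPM (SD, n = 15), and this order, Cck over Sst and Sst over Npy, held in 15 of 15 libraries. Pmch (19.8 ± 12.7 CPM), Oxt (18.5 ± 18.8 CPM), Cartpt (18.4 ± 8.68 CPM), Vip (13.7 ± 3.53 CPM) and Hcrt (12.2 ± 8.15 CPM) came next. Neighbours in this ranking could not be ordered, since the higher of each pair led in 6 to 10 of 15 libraries. Genes farther apart in it could differ more steadily, and Pmch lay above Hcrt in every library except Het_PBS 2 (12.7 and 15.5 CPM). Avp averaged 8.07 ± 9.71 CPM and was at or under 3 counts in 7 libraries. Trh averaged 2.14 ± 1.44 CPM, was at or under 3 counts in 7 libraries and had 73 reads in all, too few to enter the test across genes.

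**Figure D1:**
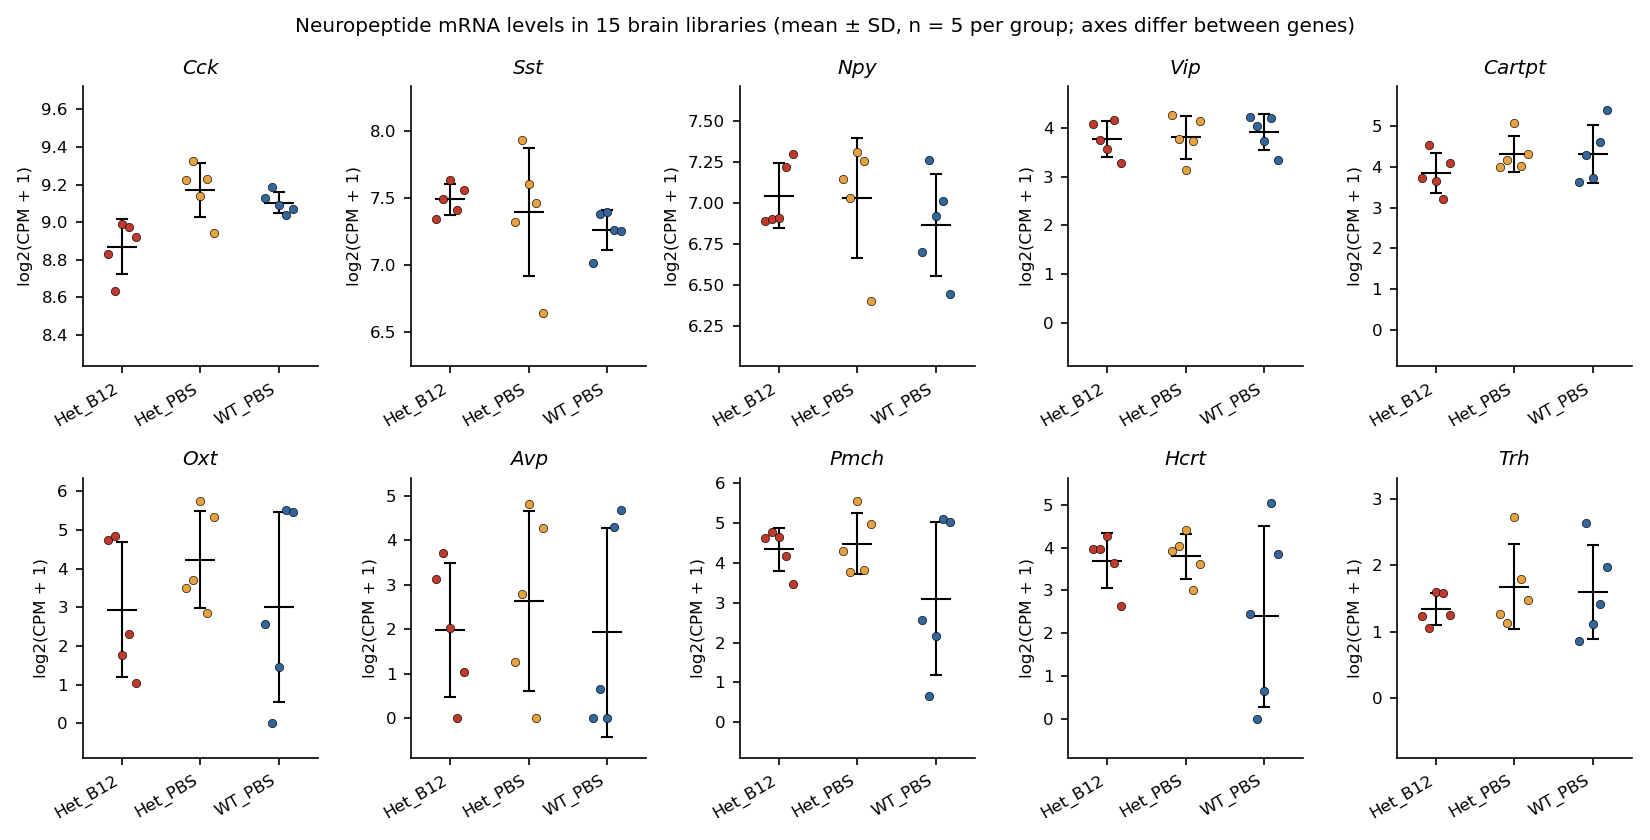
Level of each of the 10 neuropeptide mRNAs as log2(CPM + 1), with each point 1 library, the dash the group mean and the bars the SD (n = 5 per group); the vertical axes differ between genes and do not all start at 0. Oxt, Avp, Pmch and Hcrt in WT_PBS spread from at or near 0 to above 24 CPM, and Sst in Het_PBS runs from 98.7 to 243 CPM.

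The spread between libraries was large for Avp, Oxt, Pmch and Hcrt. The biological coefficient of variation, the library-to-library spread that remains in edgeR after counting error, was 0.90 for Avp, 0.72 for Oxt, 0.50 for Hcrt and 0.47 for Pmch. Of the 11718 tested genes, 99.99%, 99.97%, 99.7% and 99.1% had a value no higher than Avp, Oxt, Hcrt and Pmch, in that order. Genes at the level of Avp had a typical value of 0.31. Cck, at 0.11, lay at the other end, at percentile 1.42, with Sst (0.15, percentile 28.8) and Npy (0.16, percentile 30.6) below the median of 0.20 over all tested genes. Vip (0.24) and Cartpt (0.29) lay between.

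Oxt was low in some libraries of each group and high in others. It had 25.9, 27.9, 2.38, 3.97 and 1.05 CPM in Het_B12, 10.3, 11.9, 53.1, 6.19 and 39.5 CPM in Het_PBS, and 4.93, 0, 1.75, 45 and 43.5 CPM in WT_PBS. The 3 groups overlapped. Avp, its neighbour and paralogue, had 7.73, 12.2, 3.06, 0 and 1.05 CPM in Het_B12, 1.40, 5.97, 27.2, 0 and 18.5 CPM in Het_PBS, and 0, 0.578, 0, 18.8 and 24.7 CPM in WT_PBS. It was highest in Het_PBS 3, Het_PBS 5, WT_PBS 4 and WT_PBS 5, where Oxt was highest too.

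Pmch was highest in the same 4 libraries, and Hcrt was not. Pmch had 23.6, 26.5, 24.1, 17.1 and 10.1 CPM in Het_B12, 18.7, 12.7, 45.7, 13.2 and 30.5 CPM in Het_PBS, and 4.93, 0.578, 3.51, 33.4 and 31.8 CPM in WT_PBS. Hcrt had 14.5, 14.7, 18.3, 11.5 and 5.23 CPM in Het_B12, 14, 15.5, 20.3, 7.02 and 11.4 CPM in Het_PBS, and 4.52, 0, 0.584, 31.7 and 13.4 CPM in WT_PBS. WT_PBS 1, 2 and 3 were low for both genes, and WT_PBS 4 and 5 stood among the highest of all 15 libraries for Pmch. Summed over Avp, Oxt, Pmch and Hcrt, libraries held 17.4 to 81.3 CPM in Het_B12, 26.4 to 146 CPM in Het_PBS and 1.16 to 129 CPM in WT_PBS. WT_PBS 2 had 2 reads of the 4 genes together, where WT_PBS 4 had 309.

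**Figure D2:**
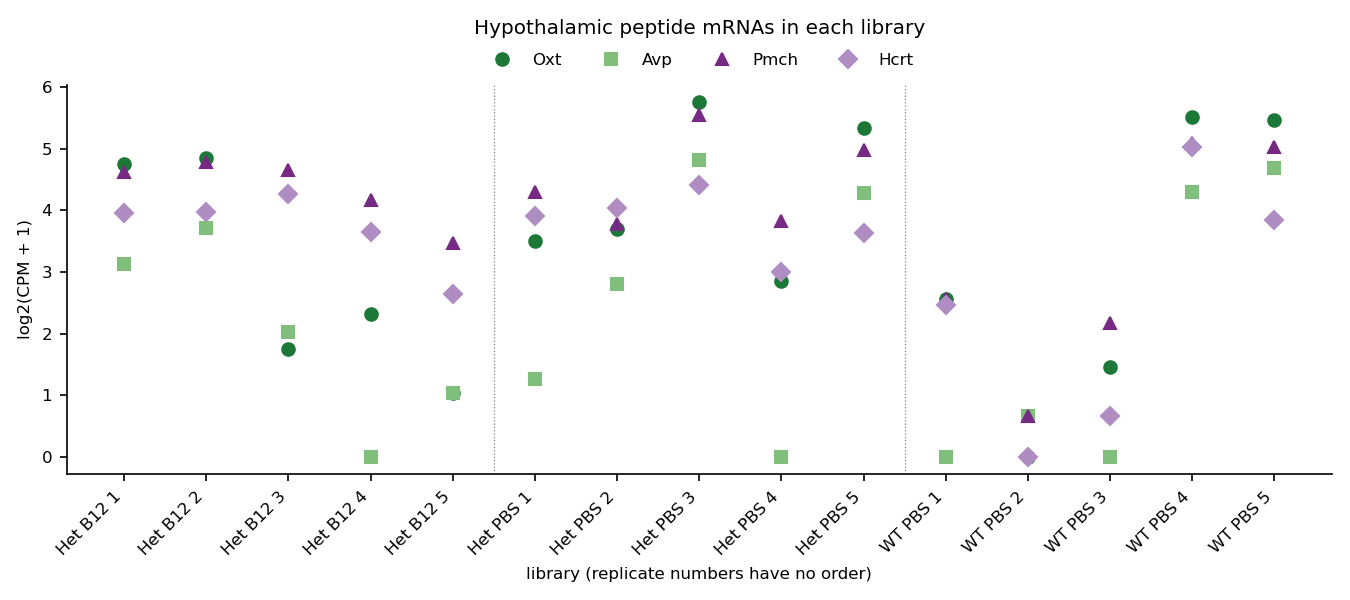
Oxt, Avp, Pmch and Hcrt in each of the 15 libraries as log2(CPM + 1), grouped as Het_B12, Het_PBS and WT_PBS; replicate numbers carry no order. The 4 genes stand high together in Het_PBS 3 and WT_PBS 4 and low together in WT_PBS 2 and WT_PBS 3.

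These hypothalamic genes moved together from library to library. Each gene's log2(CPM + 1) was taken as a deviation from its group mean and correlated over the 15 libraries, with a two-sided permutation test within groups and Benjamini-Hochberg adjustment over the 45 pairs of members. Pmch with Hcrt had a Pearson's r of 0.91 (permutation p = 0.00117, adjusted p = 0.0132; Spearman's rho 0.85, p = 0.00259). Oxt with Pmch had 0.90 (permutation p = 5.0e-05, adjusted p = 0.00225; rho 0.86, p = 0.00086), and Avp with Oxt 0.85 (permutation p = 0.00096, adjusted p = 0.0132; rho 0.75, p = 0.00603). Without the 2 libraries farthest from the median of the first-named gene, the values were 0.81, 0.85 and 0.83.

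In all, 7 of 45 pairs passed by Pearson's r, 6 of them positive. The other positive pairs were Avp with Cartpt (0.82, permutation adjusted p = 0.0112), Oxt with Hcrt (0.81, 0.0211) and Avp with Pmch (0.79, 0.0211). By Spearman's rho Avp with Pmch did not pass (0.75, permutation adjusted p = 0.057). The negative pair was Cck with Oxt (r = -0.65, permutation adjusted p = 0.0168; rho -0.67, adjusted p = 0.0452; r = -0.69 without the 2 farthest libraries). Avp with Hcrt, at 0.69, did not pass (permutation adjusted p = 0.0951). Among the abundant genes Sst with Cck had 0.61 and Sst with Npy 0.60, which did not pass (permutation adjusted p = 0.152 and 0.196), and Sst with Cck was at 0.088 without the 2 farthest libraries. Trh followed none of the hypothalamic genes closely, its r with Oxt being -0.063 and with Cartpt 0.43. Leaving out any 1 library kept r between 0.86 and 0.94 for Pmch with Hcrt, 0.86 and 0.94 for Oxt with Pmch, and 0.82 and 0.89 for Avp with Oxt. Oxt with Hcrt ran from 0.74 to 0.87, with an adjusted p of up to 0.077, and Avp with Pmch from 0.73 to 0.87, with up to 0.0597.

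**Figure D3:**
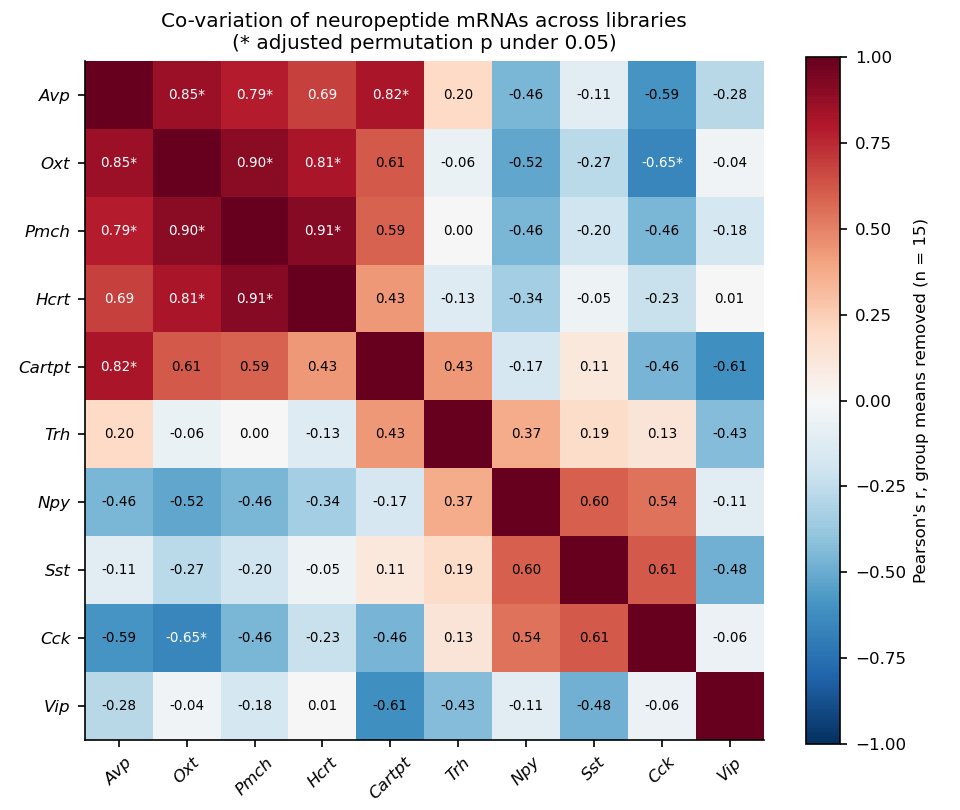
Pearson's r between the 10 neuropeptide mRNAs over 15 libraries, group means removed, red for positive and blue for negative; an asterisk marks an adjusted permutation p under 0.05. Avp, Oxt, Pmch and Hcrt form a red block of 0.69 to 0.91, and Cck stands against it at -0.65 to -0.23.

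Other genes with roles in the hypothalamus, many of them also expressed elsewhere in the brain, gave no single pattern. Summed over 24 hypothalamic regulators, libraries held 640 to 743 CPM in Het_B12 and 804 to 902 CPM in Het_PBS. Much of each sum was Nnat alone, at 277 to 357 CPM in Het_B12 and 475 to 557 CPM in Het_PBS. In Het_B12 over Het_PBS, 5 of the 9 tested regulators lay above 0 (median log2 fold change 0.05). In WT_PBS the 24 together held 745, 728, 687, 854 and 930 CPM, with WT_PBS 4 and WT_PBS 5 highest as for the 4 peptides. Nnat alone had 482, 449, 355, 517 and 608 CPM there, highest in the same libraries. Of the 24, 4 had no read in Het_B12, 5 none in Het_PBS and 2 none in WT_PBS. The transcription factor genes Sim1 and Otp, which specify the neurons of the paraventricular nucleus, averaged 0.50 and 0.79 CPM, below the floor. Dlk1, an imprinted gene with high expression in hypothalamus, had 34.6, 49.1, 29.2, 17.9 and 16.7 CPM in Het_B12, 26.2, 21.9, 43.1, 11.6 and 16.1 CPM in Het_PBS, and 9.44, 12.7, 16.4, 25.4 and 20.1 CPM in WT_PBS. Dlk1 and the summed 4 peptides had the same highest library in each group, but the other regulators looked at in this way did not: Nnat peaked in Het_B12 3, Het_PBS 2 and WT_PBS 5, Arnt2 in Het_B12 1, Het_PBS 5 and WT_PBS 3, Six3 in Het_B12 1, Het_PBS 4 and WT_PBS 3, and Pou3f2 in Het_B12 1, Het_PBS 4 and WT_PBS 2. In bulk tissue fewer cells of a type and less RNA per cell cannot be told apart, and the part that dissection plays in these values was not tested. Growth hormone (Gh), a pituitary gene, had 5.00, 1.07, 19.4, 0 and 3.14 CPM in Het_B12, 0, 22.7, 0, 2.06 and 1.79 CPM in Het_PBS, and 0, 0.578, 2.92, 7.09 and 26.3 CPM in WT_PBS. Het_PBS 3, the highest library for Oxt and Avp, had none, while within WT_PBS Gh was highest in WT_PBS 5 and then WT_PBS 4, as Avp was.

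Cartpt shared part of this pattern, through its correlation with Avp. Cartpt had 12.3, 22.2, 11.5, 8.34 and 16 CPM in Het_B12, 15, 17.1, 32.8, 15.3 and 19.1 CPM in Het_PBS, and 11.5, 18.5, 12.3, 23.4 and 40.9 CPM in WT_PBS. It was present in every library and peaked in Het_PBS 3 and WT_PBS 5, which were high for Avp and Oxt too. Vip had 15.9, 12.5, 10.9, 17.1 and 8.72 CPM in Het_B12, 18.2, 12.7, 7.77, 12.4 and 16.7 CPM in Het_PBS, and 17.7, 15.6, 12.3, 17.5 and 9.19 CPM in WT_PBS, which overlap throughout. Trh averaged 1.57 ± 0.421 CPM in Het_B12, 2.5 ± 1.81 CPM in Het_PBS, and 2.36 ± 1.78 CPM in WT_PBS, where each SD is over 5 libraries. Exact two-sided permutation tests of its log2(CPM + 1) gave p = 0.357 for Het_B12 against Het_PBS, 0.508 for Het_B12 against WT_PBS and 0.849 for Het_PBS against WT_PBS (n = 5 each; smallest possible p 0.00794; adjusted over the 3 tests 0.762, 0.762 and 0.849).

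Heterozygotes were then compared with wild types under PBS, which asks about the loss of 1 Tbx1 copy. None of the 9 tested members passed edgeR's quasi-likelihood test (Benjamini-Hochberg adjusted p of 0.786 or more), and of all 11718 genes 0% passed, with 879 at an unadjusted p under 0.05 by edgeR and 0 calls by DESeq2 or limma-voom. The largest log2 fold change was that of Pmch, at 0.63 ± 0.44 SE (SD, n = 5: 24.2 ± 14 CPM in Het_PBS, 14.8 ± 16.3 CPM in WT_PBS). Its 95% interval ran from 0.84-fold to 2.87-fold, and the WT_PBS mean joins libraries near 0 with libraries above 30 CPM. Hcrt stood at 0.37 ± 0.49, Oxt at 0.27 ± 0.62 and Avp at 0.19 ± 0.76, whose interval of 0.39-fold to 3.31-fold covers large changes in either direction. Single libraries set these values: without Het_PBS 3 Oxt was at -0.28, Avp at -0.58 and Pmch at 0.25, while without WT_PBS 4 Hcrt was at 1.44 and Pmch at 1.15.

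The abundant genes were bounded more tightly in that comparison. Cck averaged 578 ± 55.9 CPM in Het_PBS and 550 ± 21.8 CPM in WT_PBS (log2 fold change 0.07 ± 0.10, interval 0.92-fold to 1.21-fold). Sst averaged 174 ± 52.7 CPM in Het_PBS and 153 ± 15.4 CPM in WT_PBS (0.20 ± 0.14, 0.94-fold to 1.40-fold), and Npy 133 ± 29.7 CPM in Het_PBS and 118 ± 25.3 CPM in WT_PBS (0.18 ± 0.15, 0.92-fold to 1.40-fold). The wide SD of Sst in Het_PBS came from Het_PBS 2 at 243 CPM and Het_PBS 5 at 98.7 CPM. By library Sst had 161, 178, 198, 169 and 188 CPM in Het_B12, 158, 243, 193, 175 and 98.7 CPM in Het_PBS, and 128, 165, 167, 152 and 151 CPM in WT_PBS. Vip (-0.10 ± 0.27) and Cartpt (-0.12 ± 0.29) lay slightly below 0. The median log2 fold change was 0.19 over the 9 tested members and -0.01 over all tested genes.

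The vitamin was examined by comparing Het_B12 with Het_PBS. None of the 9 tested members passed, against 7.26% of all tested genes (3.47% higher and 3.79% lower). Of the 9, 8 lay below 0 (median -0.24), where 51.4% of all tested genes lay above 0 (median 0.01). The 14 tested genes of other neuropeptides had a lower median, -0.53, with 4 above 0. Cck came nearest to passing. It had 454, 396, 508, 501 and 483 CPM in Het_B12 and 597, 640, 562, 600 and 491 CPM in Het_PBS. The groups overlapped through Het_PBS 5 alone, the lowest Het_PBS library, while 7.83% of all tested genes did not overlap (4.07% in the lower direction). The log2 fold change was -0.30 ± 0.10 (0.81-fold, interval 0.70-fold to 0.93-fold; edgeR adjusted p = 0.0537).

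The call on Cck lay at the threshold and turned on the processing. It passed in 7 of 24 other settings, among them DESeq2 (adjusted p = 0.0128), limma-voom (0.0287) and fits without Het_PBS 5 (0.027) or without WT_PBS 3 (0.0362), and the adjusted p over all settings ran from 0.0128 to 0.963. The highest came from an offset for transcript length, under which the log2 fold change of Cck was -0.01. Short transcripts were lower with the vitamin in general. Of 224 tested genes whose longest annotated transcript has at most 800 bases, 25% passed as lower and the median log2 fold change was -0.41, against 3.38% and 0.02 for the 11491 longer ones. Below 0 lay 84.4% of the short ones and 47.9% of the longer ones. Cck, at 799 bases, is just within the limit of 800 bases, and no other limit was examined. In all, 7 of the 10 members are within it. Sst (721 bases) and Npy (566 bases) are among them, and they stood at 0.04 ± 0.14 and -0.01 ± 0.15, with 179 ± 14.6 and 132 ± 18.7 CPM in Het_B12 against 174 ± 52.7 and 133 ± 29.7 CPM in Het_PBS. With the length offset Sst was at 0.35 (edgeR adjusted p = 0.177) and Npy at 0.37 (adjusted p = 0.17).

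The hypothalamic genes gave no bounded answer on the vitamin. Avp averaged 4.80 ± 5.08 CPM in Het_B12 and 10.6 ± 11.8 CPM in Het_PBS (-1.12 ± 0.80, interval 0.15-fold to 1.41-fold; edgeR adjusted p = 0.449). Oxt averaged 12.3 ± 13.5 CPM in Het_B12 and 24.2 ± 20.8 CPM in Het_PBS (-0.99 ± 0.64, interval 0.20-fold to 1.24-fold; adjusted p = 0.392). Both means were set by few libraries, and without Het_PBS 3 the log2 fold changes were -0.35 for Avp and -0.44 for Oxt. Pmch (-0.24 ± 0.42) and Hcrt (-0.09 ± 0.47) lay nearer 0, Cartpt stood at -0.49 ± 0.30 (-0.23 without Het_PBS 3) and Vip at -0.06 ± 0.27.

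**Figure D4:**
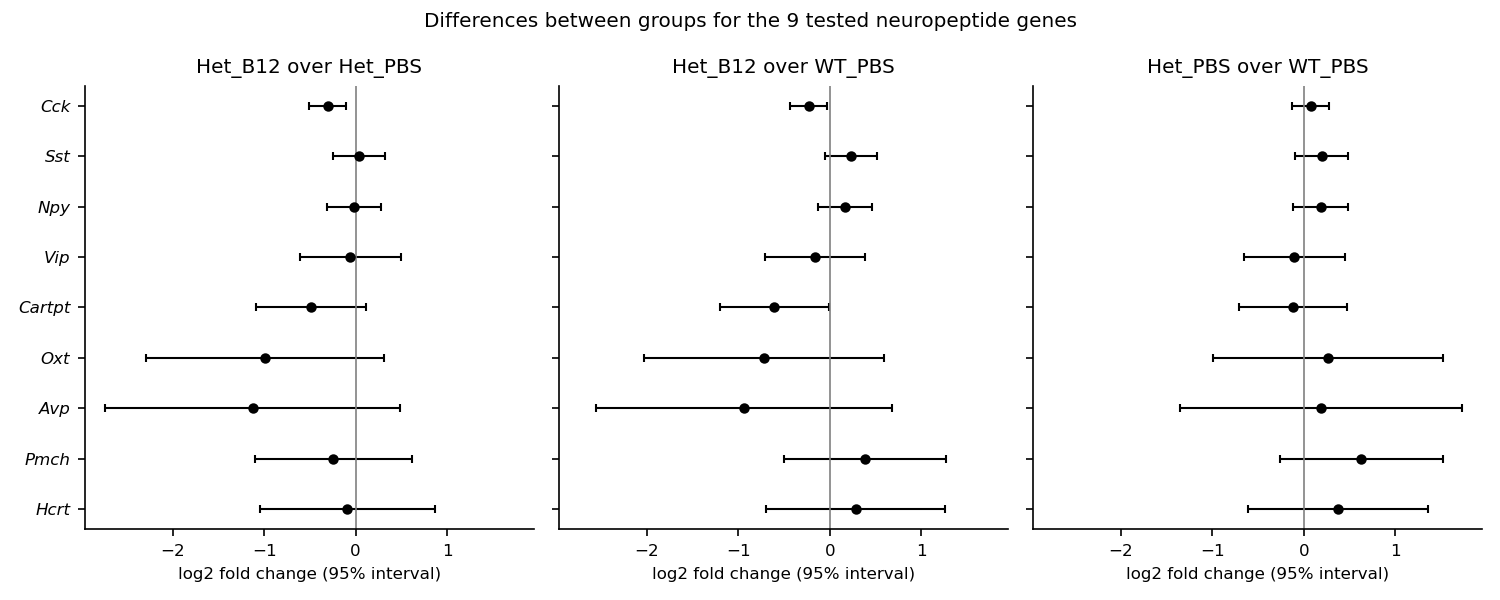
Log2 fold changes of the 9 tested neuropeptide genes with 95% intervals from the edgeR fit, for Het_B12 over Het_PBS, Het_B12 over WT_PBS and Het_PBS over WT_PBS; the vertical line is no change. The intervals of Cck, Sst and Npy are narrow and those of Oxt and Avp the widest, and no gene passed in any of the 3 comparisons.

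Treated heterozygotes were last set against wild types, where genotype and vitamin differ together and where Het_B12 and WT_PBS are the same libraries as in the comparisons above. Again 0 of 9 members passed, against 7.33% of all tested genes (3.22% higher and 4.11% lower). Cck, at 396 to 508 CPM in Het_B12 and 525 to 582 CPM in WT_PBS, was the member whose groups did not overlap, which held for 5.38% of all tested genes, 2.94% in the lower direction (-0.23 ± 0.10, edgeR adjusted p = 0.165). Cartpt averaged 14.1 ± 5.31 CPM in Het_B12 and 21.3 ± 12 CPM in WT_PBS (-0.61 ± 0.30, adjusted p = 0.226), and without WT_PBS 5 it was at -0.22. Sst (0.23 ± 0.14) and Npy (0.17 ± 0.15) lay above 0, as did Pmch (0.39 ± 0.44) and Hcrt (0.28 ± 0.48), and Avp (-0.94 ± 0.80), Oxt (-0.72 ± 0.65) and Vip (-0.16 ± 0.27) below. Single libraries set these values too: Avp was at -1.68 without Het_B12 2 and at -0.12 without WT_PBS 5, and Oxt at -1.34 without Het_B12 2 and at -0.15 without WT_PBS 4. Without WT_PBS 2 Pmch was at 0.10 and Hcrt at -0.0066, and without WT_PBS 4 they were at 0.90 and 1.35. By edgeR 1 member, Cck, had an unadjusted p under 0.05 in Het_B12 against Het_PBS, 2 (Cck and Cartpt) in Het_B12 against WT_PBS and 0 in Het_PBS against WT_PBS.

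The enzymes and granule proteins that turn precursors into peptides had a median near 0 with the vitamin, and 3 of them fell. Of 22 listed, 21 were tested, and in Het_B12 against Het_PBS 3 fell, 0 rose and 18 did not pass (median log2 fold change 0.01, as over all tested genes, of which 3.79% fell). Cpe, the carboxypeptidase that trims basic residues from cut peptides, had 1148, 1168, 1346, 1321 and 1385 CPM in Het_B12 and 1739, 1735, 1761, 1599 and 1586 CPM in Het_PBS, without overlap, as did 4.07% of all tested genes in the lower direction (-0.40 ± 0.10, edgeR adjusted p = 0.00839). Scg2 and Scg3, secretogranins that fill and sort dense-core granules, fell by 0.42 ± 0.12 and 0.35 ± 0.11 on the log2 scale (adjusted p = 0.0262 and 0.0365). Against WT_PBS the same 3 genes fell, and Vgf, a granule protein induced by neurotrophins, rose by 0.59 ± 0.18 (100 ± 30.1 CPM in Het_B12 and 67.2 ± 18.5 CPM in WT_PBS, edgeR adjusted p = 0.0361). No gene of this list passed in Het_PBS against WT_PBS.

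**Figure D5:**
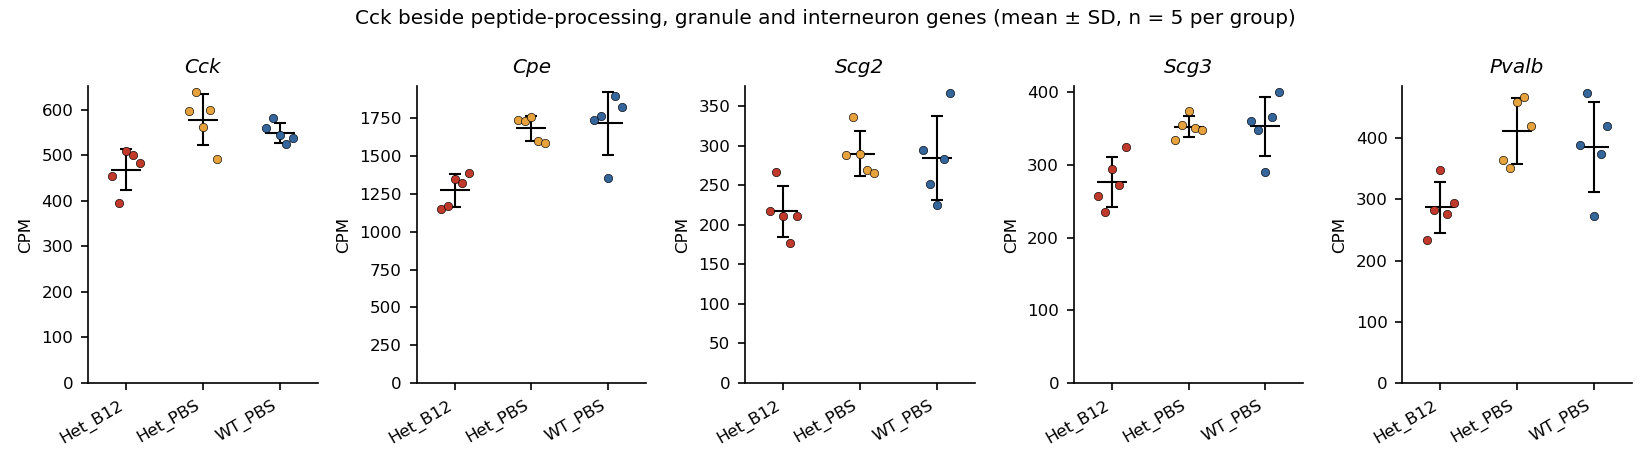
Cck beside Cpe, Scg2 and Scg3 of the granule list and Pvalb of the interneuron list, in CPM from 0, with each point 1 library, the dash the group mean and the bars the SD (n = 5 per group). In all 5 genes the Het_B12 mean is the lowest of the 3, and for Cck it is 469 CPM against 578 in Het_PBS and 550 in WT_PBS. Cpe, Scg2, Scg3 and Pvalb had passed as lower in Het_B12, so their shared direction follows from the choice of genes. Other passing genes of the same lists rose, namely Reln, Slc32a1 and, against WT_PBS, Vgf and Gad2.

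Receptors for the members were scarce, and 10 of 22 reached the test. None passed in any of the 3 comparisons. In Het_B12 against Het_PBS the smallest p-values were those of the somatostatin receptor gene Sstr3 (-0.59 ± 0.22, edgeR adjusted p = 0.0929) and the neuropeptide Y receptor gene Npy2r (0.88 ± 0.46, 0.262). Against WT_PBS Cckbr, the main brain receptor of cholecystokinin, stood at 0.58 ± 0.20 in Het_B12 (29.7 ± 4.00 CPM, adjusted p = 0.0666), opposite in sign to Cck. Of 32 other neuropeptide genes, 14 were tested and 0 passed between Het_B12 and Het_PBS, where Tac1, the substance P precursor, stood at -0.51 ± 0.18 (0.078). Penk, the enkephalin precursor of striatum, rose in Het_B12 against WT_PBS (120 ± 19.3 and 86.8 ± 24.1 CPM, 0.48 ± 0.15, adjusted p = 0.0371).

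Of 29 tested interneuron genes other than peptides, 2 rose, 1 fell and 26 did not pass in Het_B12 against Het_PBS, where 3.47% of all tested genes rose and 3.79% fell. A count this small is near that background. Reln, secreted by a class of upper-layer interneuron and by cerebellar granule cells, rose by 0.88 ± 0.17 (63.0 ± 7.25 CPM in Het_B12 and 34.2 ± 7.24 CPM in Het_PBS, edgeR adjusted p = 0.00095). Slc32a1, the vesicular GABA transporter, rose by 0.40 ± 0.12 (0.0311). Pvalb, the calcium buffer of fast-spiking interneurons and Purkinje cells, fell by 0.52 ± 0.12 on the log2 scale (287 ± 41.3 CPM in Het_B12 and 412 ± 53.5 CPM in Het_PBS, 0.00613). Against WT_PBS Gad2, a GABA-synthesising enzyme, rose too (0.44 ± 0.12, 0.0147). Of 9 tested hypothalamic regulators, Nnat fell by 0.72 ± 0.11 on the log2 scale (6.3e-05) and Six3, also expressed in striatum, rose by 0.51 ± 0.16 (0.0382) in Het_B12 against Het_PBS. Of 10 tested genes listed for the cAMP response and neuronal activity, Pde10a, a striatal phosphodiesterase gene, passed in that comparison (0.57 ± 0.16, 0.0196).

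Markers of cell types and brain regions differed between these libraries too, some lists more than others. Over all tested genes 3.47% rose and 3.79% fell in Het_B12 against Het_PBS, and 1 call in a list of this size is near that background. Of 12 tested astrocyte markers 9 fell in Het_B12 against Het_PBS (summed level 5065 to 5965 CPM in Het_B12 and 7663 to 8768 CPM in Het_PBS), of 12 microglia markers 5 fell (394 to 492 CPM in Het_B12 and 611 to 838 CPM in Het_PBS), and of 8 endothelial markers 5 rose (198 to 266 CPM in Het_B12 and 94.0 to 141 CPM in Het_PBS). Of 10 neuron markers 1 rose, with summed levels of 7126 to 7690 CPM in Het_B12 and 7122 to 7856 CPM in Het_PBS. Of 10 oligodendrocyte markers 3 fell (4764 to 6646 CPM in Het_B12 and 5095 to 8821 CPM in Het_PBS). Of 8 striatal markers 2 rose, with all 8 above 0 and summed levels of 883 to 977 CPM in Het_B12 and 685 to 821 CPM in Het_PBS, which do not overlap. Of single tested genes, 7.83% did not overlap between these groups in either direction. Of 12 cerebellar markers 4 rose and 1 fell (1027 to 1452 CPM in Het_B12 and 1153 to 1450 CPM in Het_PBS). Among 12 markers of excitatory cortex and hippocampus 1 rose (8795 to 11755 CPM in Het_B12 and 10082 to 12847 CPM in Het_PBS). Among 8 thalamic markers 0 passed (555 to 653 CPM in Het_B12 and 566 to 730 CPM in Het_PBS). Pde10a is itself on the striatal list and Pvalb on the cerebellar one. The part these markers play in the values of Cck, Reln, Pvalb, Pde10a, Six3 and Penk was not tested.

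The tested genes whose deviations from group means were most like each member's were ranked over the 15 libraries. For Oxt they were 0610009B22Rik (r = 0.90), Pmch (0.90) and Avp (0.85), for Pmch they were Hcrt (0.91), Oxt (0.90) and 0610009B22Rik (0.89), and for Hcrt Slc24a3 (0.92), Pmch (0.91) and Rnf208 (0.83), out of 11718 genes. Thus among all tested genes these 3 peptides had another member in their nearest 3. For Avp the nearest were Kcna1 (0.91), Dleu7 (0.91) and Hspb8 (0.86), and Hspb8 also led for Cartpt (0.90), before Adgrg1 (0.87) and Aldh9a1 (0.86). Sst was nearest to Fitm2 (0.88), Cdh1 (0.87) and Reep2 (0.87), Npy to Klf3 (0.92), E2f1 (0.88) and Rasa3 (0.86), Cck to Exoc6 (0.86), Erf (0.86) and Svop (0.85), and Vip to Igfbp5 (0.88), Epha4 (0.86) and Nkain2 (0.86). With so many genes and 15 libraries, values of this size describe these libraries only.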

How the data were processed

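Raw counts, whole numbers for 30386 genes in 15 libraries, were deposited by the authors, and every column matched 1 sample label. Per the labels' protocols, QuantSeq 3′ kits were used. The submitters' processing notes name STAR, HTSeq, edgeR and the build mm10, and their versions, the annotation and the strand setting are not given there. With R 4.3.3, filterByExpr left 11718 genes, which were scaled by TMM, and edgeR 4.0.16 fitted 1 mean per group to all 15 libraries with no covariate. Contrasts used the quasi-likelihood test, with calls at 0.05 after Benjamini-Hochberg adjustment over all tested genes. limma 3.58.1 and DESeq2 1.42.0 served as alternatives. The procedure was tested on simulated data. GENCODE M21 (GRCm38) gave positions and lengths, matching 30348 identifiers, and RefSeq the promoters. Depth was 1683258 to 2746122 counts, and floors cover counting error only.

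The members and lists were chosen with earlier results of these data known. Named genes were the members, for each the 3 most similar tested genes, Tbx1, and of each list the passing genes with the smallest p-values, up to 4 per comparison, or 2 where none passed; not every gene so chosen is printed. Dlk1, Sim1, Otp, Arnt2, Pou3f2, Gh, Tac2, Gal, Pomc and Crh were added after their values were seen. Het_B12 1 and Het_PBS 5 carry the same animal number. The chi-square per degree of freedom between them was 10.7, against 3.11 or more within groups, so neither was treated as a copy of the other. Pairs of a Het_B12 with a Het_PBS library ran from 8.89 to 15.7, so this value cannot tell whether both came from the same mouse.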

Additional observations from a re-analysis of the deposited data

Results flagged for a closer look

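Of 30 sets of 5 libraries (10 genes in 3 groups), 1 held a library far from the others. Cartpt stood at 32.8 CPM in Het_PBS 3, where the next highest Het_PBS library had 19.1 CPM. The gap was 0.767 of the group's range, over the critical value of 0.71 for 5 libraries. Chance flags about 1 in 20 such sets. Het_PBS 3 was also the highest Het_PBS library for Oxt, Avp, Pmch, Hcrt and Trh.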

How the results depend on the processing

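The count of passing members stayed at 0 in all settings for Het_PBS against WT_PBS and for Het_B12 against WT_PBS. For Het_B12 against Het_PBS it was 1 (Cck) with RLE size factors, DESeq2, limma-voom, a fit of only the 2 groups, and without WT_PBS 3 and Het_PBS 5 together, a pair chosen after seeing the data, and 0 to 1 with 1 library left out. Without a filter on low counts it was also 1, but there Oxt passed (adjusted p = 0.00352) and Cck did not (0.101). With the replicate number as a block the counts of all genes were 830, 800 and 0 for Het_B12 against Het_PBS, Het_B12 against WT_PBS and Het_PBS against WT_PBS, with 0 members each; same-numbered libraries did not deviate together (r from -0.0933 to 0.106), so the numbers were not taken to pair them. The count over all genes for Het_PBS against WT_PBS was 0 by edgeR (879 at an unadjusted p under 0.05), DESeq2 and limma-voom, 40 without a filter, 1 without WT_PBS 3 and Het_PBS 5 together, and 0 to 14 with 1 library left out (14 without WT_PBS 2, 5 without Het_PBS 2, 2 without Het_PBS 4 or Het_PBS 5). It was 549 to 1050 for Het_B12 against Het_PBS (549 without Het_B12 1). For Het_B12 against WT_PBS it was 449 to 1268 (449 without WT_PBS 5, 477 without WT_PBS 1, 513 without Het_B12 2, 515 without Het_B12 1) and 1390 without WT_PBS 3 and Het_PBS 5 together. The causes were not tested. The count of correlated pairs was 5 with a pseudocount of 0.25 and 5 to 8 with 1 library left out.

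Among log2 fold changes of members, 378 of 405 values with 1 library left out, and 206 of 224 under other settings, kept direction and side of the threshold. The 405 include fits without a library of the group not compared, which leave the compared libraries unchanged. No member passed in the main fit, so the side of the threshold could change only by a gain. These counts therefore say little about stability. Signs turned with the length offset for Cck (-0.030, Het_PBS against WT_PBS) and, in Het_B12 against Het_PBS, Npy (0.37), Pmch (0.070) and Hcrt (0.28). Npy turned also with a mean count of at least 50 (0.017) and the replicate block (0.012), and Avp by limma-voom (0.13, Het_B12 against WT_PBS). Without WT_PBS 3 and Het_PBS 5 together Avp was at -0.38 and Oxt at -0.23 in Het_PBS against WT_PBS, Sst at -0.12 and Vip at 0.012 in Het_B12 against Het_PBS, and Hcrt at -0.00011 in Het_B12 against WT_PBS. With 1 library left out, values that changed sign ran, in Het_PBS against WT_PBS, from -0.24 to 0.044 (Vip), -0.58 to 1.01 (Avp), -0.28 to 0.84 (Oxt), -0.38 to 0.27 (Cartpt) and -0.18 to 0.34 (Trh). In Het_B12 against Het_PBS they ran from -0.11 to 0.19 (Sst), -0.14 to 0.053 (Npy), -0.21 to 0.075 (Vip), -0.41 to 0.14 (Pmch) and -0.26 to 0.11 (Hcrt), and in Het_B12 against WT_PBS from -0.0066 to 1.35 (Hcrt) and -0.44 to 0.0046 (Trh). Depth limits Trh and, in low libraries, Avp, Oxt, Pmch and Hcrt, where a few reads decide a value.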

Other observations

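Among other neuropeptide genes, Penk was at 56.0 to 150 CPM and Tac1 at 24 to 72.3 CPM over the 15 libraries, between Npy and Pmch in level. Tac2 ran from 6.28 to 22.7 CPM, and its highest library was Het_PBS 2. Gal, expressed in hypothalamus and brainstem, ran from 0.679 CPM in Het_B12 3 to 12.1 CPM in Het_PBS 3. Pomc, the precursor of melanocortins in the arcuate nucleus and of corticotropin in the pituitary, ran from 0.584 to 6.36 CPM, and was highest in WT_PBS 2, the library with 2 reads of Avp, Oxt, Pmch and Hcrt together. Crh went the other way, with its highest values in WT_PBS 5 (32.2 CPM) and Het_PBS 3 (30.2 CPM), which were high for Avp and Oxt.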
